A study of Mus musculus with 3 samples.

Results

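The transcripts described here are 10 genes that mark the cytoskeleton and cytoplasm of sensory neurons, chosen by their symbols among the 32227 genes counted. They are the neurofilament subunits Nefl, Nefm and Nefh, the related filament proteins Prph and Ina, the tubulin Tubb3, the tubulin-binding protein Stmn2, and Uchl1, Sncg and Avil, which are widely used as markers of peripheral neurons. They were measured in single nuclei of dorsal root ganglia (DRG), where the cell bodies of sensory neurons lie, taken at L3 to L5 from C57BL/6 mice. There was 1 adult library (3 months) and 2 aged libraries (21 months, called aged libraries 1 and 2), and no group carried a transgene or a treatment. The text describing the series gives the aged mice another age, and the sample labels were followed. All 3 libraries are labelled male, yet Xist, which is transcribed from the silenced X chromosome of females, was at 844 to 1414 CPM (UMI counts scaled to a total of 1000000) in their nuclei beside Y-linked genes at 9.22 to 24.4 CPM in sum, so that the labelled sex was not used. How many mice went into a library is not stated in the labels, and p-values measure only the spread between libraries.

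Neurofilaments are built from the light, medium and heavy subunits together with Ina (alpha-internexin) or Prph (peripherin), and they fill the axons of large myelinated neurons and set their caliber. Prph is best known from small sensory neurons with thin axons. These are among the most abundant messenger RNAs of sensory neurons, and as mature messages they are held mostly in the cytoplasm, which matters for a method that isolates nuclei. Malat1, a long noncoding RNA retained in the nucleus, is often used as a sign that a barcode holds an intact nucleus.

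The genes lie on 8 chromosomes (mm10, which is GRCm38, GENCODE M21). Nefl (chr14:68083863-68089095, plus strand) lies within the annotated span of Nefm (chr14:68082590-68124846, minus strand) and shares 1108 exonic bases with it on the other strand. Whether the counting used strand is not stated in the sources used here, so that reads of this pair may not be fully separated. Nefh (chr11:4938754-4948064, minus strand) overlaps no annotated gene, and neither do Prph (chr15:99055174-99058978, plus strand), Stmn2 (chr3:8509360-8561606, plus strand) and Sncg (chr14:34370274-34374789, minus strand). Ina (chr19:47014698-47025327, plus strand) shares 456 exonic bases with Nt5c2, Uchl1 (chr5:66676091-66687234, plus strand) shares 295 with the antisense gene Uchl1os, and Avil (chr10:127000709-127020994, plus strand) shares 165 with Tsfm, each on the opposite strand. Tubb3 (chr8:123411424-123422015, plus strand) lies within a long read-through gene on its own strand, Gm20388, without shared exonic bases. Their spans run from 3805 bases (Prph) to 52247 bases (Stmn2).

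RefSeq promoter windows (GRCm38.p6) were matched for 6 of the 10 genes, Prph, Ina, Tubb3, Uchl1, Sncg and Avil. The 120 bases before the start of transcription are shown for Prph (chr15:99055054-99055173) and Avil (chr10:127000589-127000708), both on the plus strand. They were chosen because both windows lie outside the annotated span of their own gene, with other genes not checked, and because of the results that follow. There, Prph had its lowest level of any subtype in large-fiber neurons, and Avil in neurons was the transcript nearest to its level in free RNA. Capitals mark 3 motifs searched on either strand, the letters TATAA of the TATA box, the letters CCAAT of the CCAAT box, and the letters GGGCGG of the GC box.
Prph: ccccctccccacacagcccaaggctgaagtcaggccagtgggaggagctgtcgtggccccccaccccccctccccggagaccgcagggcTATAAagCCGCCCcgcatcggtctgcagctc
Avil: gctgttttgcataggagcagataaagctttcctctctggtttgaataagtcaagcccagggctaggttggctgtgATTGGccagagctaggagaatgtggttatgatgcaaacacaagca
Prph holds TATAA from position -31 and the reverse of GGGCGG from position -24, counted back from the start, while Avil holds the reverse of CCAAT from position -45. In the 250 bases before all 32851 starts of the table, TATAA occurs in 22.8%, CCAAT in 33.8% and GGGCGG in 32.7%, and the motifs do not overlap one another in these windows. A match of letters is a description only.

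Nuclei were taken as barcodes in which over 1000 genes were seen, 11518, 5130 and 2611 in the adult library and aged libraries 1 and 2, from totals of 167664164, 95647106 and 69045987 UMIs (unique molecular identifiers, each counting 1 captured transcript). Nuclei were sorted into classes by marker lists that hold none of the 10 genes, and 4294, 2316 and 1236 were classed as neurons. The other classes tested were satellite glia (SGC), non-myelinating and myelinating Schwann cells (NMSC, MSC), fibroblasts, endothelial, myeloid and B cells, each with at least 20 nuclei in every library. T cells and mural cells were gated too, but with 14 and 8 nuclei in aged library 2 they entered no comparison. Libraries shared at most 1 barcode. Counts were summed per class and library, so that a library and not a nucleus is the replicate, and fold changes come from the quasi-likelihood test of edgeR, with p-values adjusted by Benjamini-Hochberg over every gene tested. Barcodes of 10 to 99 UMIs, too few for a nucleus, were summed as free RNA, the RNA that floats in the suspension. The neuron marker list was at 10107, 8513 and 8983 CPM in neurons and at 6027, 6273 and 6716 CPM in free RNA. The level in free RNA passes the neuron gate, so that a barcode of free RNA alone could be classed as a neuron. How many of the neurons are such barcodes was not tested.

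All 10 transcripts were higher in neurons than in the 7 other classes on average, by 2.11-fold (Sncg) to 6.74-fold (Avil). In this comparison 34.4% of all 13216 genes tested were called higher in neurons and 30% lower, and the median log2 fold change was 1.70 over the 10 transcripts and 0.03 over all genes. Avil, an actin-binding protein of the gelsolin and villin family, was at 326, 349 and 326 CPM in the neurons of the adult library and aged libraries 1 and 2. Its mean over libraries was 43.3 to 82.9 CPM in the other classes tested, and the groups did not overlap (log2 fold change 2.75 ± 0.14 SE, adjusted p = 1.37e-14). Nefh, the heavy neurofilament subunit, was at 932, 1240 and 635 CPM in neurons. In satellite glia it was at 358, 989 and 360 CPM, so that the glia of aged library 1 exceeded the neurons of the adult library and of aged library 2 (log2 fold change over all classes 1.77 ± 0.19, adjusted p = 1.94e-08). Sncg (gamma-synuclein) was at 824, 539 and 373 CPM in neurons against 784, 428 and 373 CPM in myelinating Schwann cells. Neurons were at or above that class within each library. The untested T cells of the adult library (27 nuclei) held the 10 transcripts at 8279 CPM in sum, above the 7707 CPM of adult neurons. In aged libraries 1 and 2 T cells were at 2161 and 1921 CPM, below the 7904 and 5169 CPM of neurons.

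In satellite glia the 10 transcripts were present in nearly the ratios in which free RNA holds them. In the adult library, Nefl made up 19.9% of the UMIs of the 10 transcripts in free RNA, 21.5% in satellite glia and 20.3% in fibroblasts. Sncg made up 16.1% of them in free RNA, 15.9% in satellite glia and 16.3% in fibroblasts. Avil made up 1.87% of them in free RNA, 2.14% in satellite glia and 2.68% in fibroblasts. In neurons the mix was different, with Avil at 4.23%, Prph at 8.77% against 6.03% in free RNA, Stmn2 at 12.4% against 8.18%, and Sncg at 10.7%. To turn the free RNA mix into that of a class, a share of the UMIs would have to change gene. This share was 11.1% for adult neurons and 2.37% (endothelial cells) to 10.1% (myeloid cells) for the other adult classes tested. In aged library 1 the 10.3% of neurons lay within the range of the other classes tested (5.84% to 12.4%). In aged library 2 neurons were at 14.0% against 4.38% to 13.5%. Farthest from free RNA among these classes were myelinating Schwann cells (12.4%) in aged library 1 and B cells (13.5%) in aged library 2. The B cells of aged library 2 held 95 UMIs of the 10 transcripts in all. In aged myelinating Schwann cells Sncg made up 15% and 16.9% of these UMIs, against 7.51% and 9.46% in free RNA. When the free RNA profile was subtracted at the highest share that markers of other cell types allow, 6 to 10 of the 10 transcripts were left with at most 3 UMIs in the non-myelinating Schwann cells, fibroblasts, endothelial, myeloid and B cells of both aged libraries. In the adult library this held for 8 of the 10 in fibroblasts but for 1 to 3 in the other classes, satellite glia (2) among them, and in satellite glia of aged libraries 1 and 2 for 1 and 8. All 10 remained above that floor in neurons in every library. The share was set by the neuron markers in both Schwann cell classes, fibroblasts, endothelial and B cells of every library. The same held for adult satellite glia. In neurons this list was not used to set the share. A floor in UMIs also follows the depth of a sum, so that these counts do not compare neurons with other classes.

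The share of nuclei with a UMI was compared as well. After each nucleus was thinned to 1000 UMIs, Nefh had a UMI in 40.9%, 58.7% and 42.2% of neurons in the adult library and aged libraries 1 and 2, and in 20.3%, 22.6% and 12.0% of fibroblasts, a cell type that should lack it. Without thinning these shares were 82.8%, 91.7% and 80.9% of neurons, with medians of 6953, 5305 and 7309 UMIs, and 41.5%, 52.3% and 35.3% of fibroblasts, with medians of 2737, 3881 and 4882 UMIs. Avil, thinned in the same way, was seen in 28.4%, 31.3% and 32.3% of neurons and in 6.48%, 8.37% and 1.5% of fibroblasts. For both genes the share in neurons was above that in fibroblasts in all 3 libraries. Intervals on shares of nuclei would cover counting error only.

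**Figure D1:**
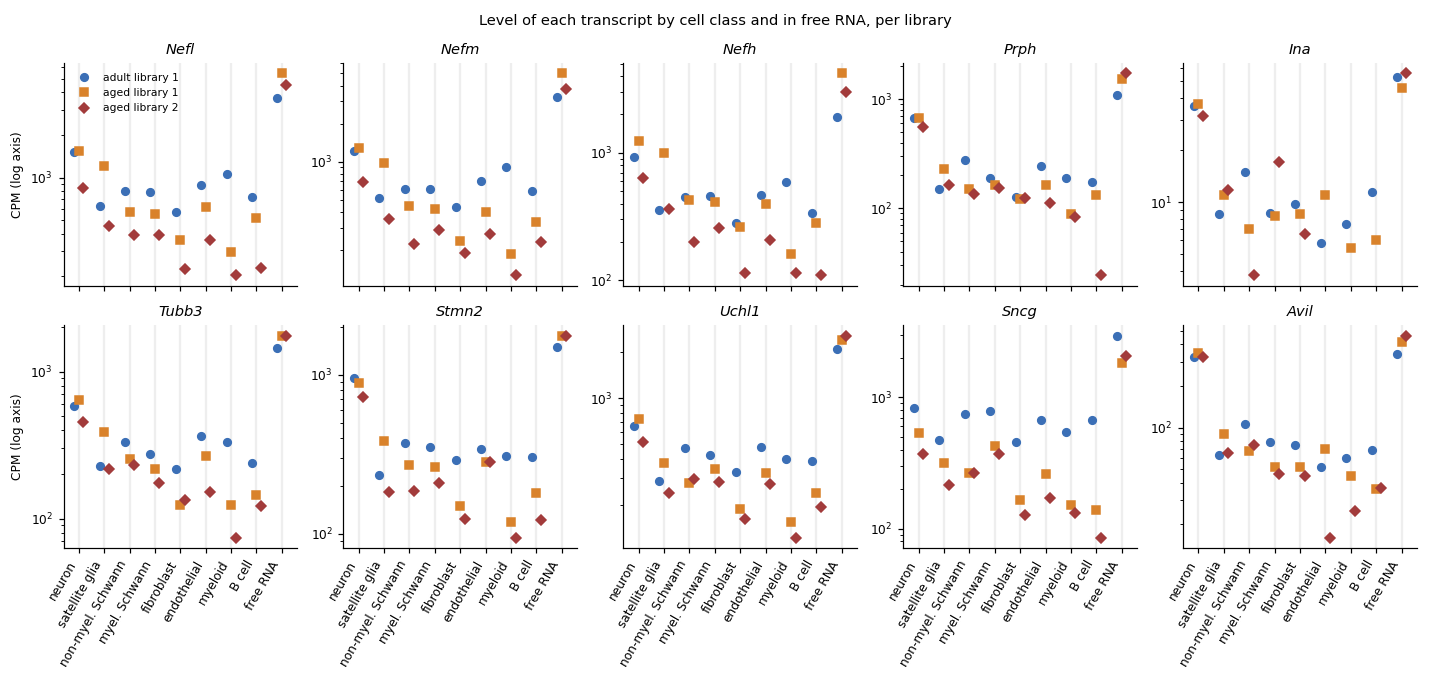
CPM (log axis) of each transcript in the neuron sum, in the 7 other cell classes and in free RNA, with 1 point per library. Free RNA is the highest point of its library for all 10 transcripts. Of the classes drawn, neurons are the highest of their library in every panel, level with myelinating Schwann cells for Sncg in aged library 2. T cells and mural cells are not drawn. Sums with no UMI, which occur for Ina only, are not drawn.

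Free RNA itself carried more of these transcripts than neuronal nuclei did. For Nefl, the light subunit, free RNA was at 3642, 5467 and 4522 CPM against 1506, 1531 and 847 CPM in neurons, a ratio of 2.42, 3.57 and 5.34 in the adult library and aged libraries 1 and 2. Sncg was 3.58, 3.40 and 5.50 times higher in free RNA than in neurons, and Uchl1, a ubiquitin hydrolase of the neuronal cytoplasm, 3.20, 3.3 and 4.93 times. Avil was the nearest to parity, with a log2 ratio of neurons to free RNA of -0.07, -0.25 and -0.51. The median log2 ratio of neurons to free RNA was -1.16, -1.58 and -2.10 over the 10 transcripts and -0.15, 0.03 and 0.01 over all genes with at least 100 UMIs. Accordingly, the kept nuclei held 23.6% (Sncg) to 50.3% (Avil) of the UMIs of each transcript in the adult library, 27.9% (Nefm) to 49.9% (Avil) in aged library 1 and 18.4% (Sncg) to 42.5% (Avil) in aged library 2. The median gene had 52.3%, 60.4% and 56.5% of its UMIs there, and Malat1 71.9%, 61.5% and 61.3%.

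Short genes as a group lay on the same side. Across 11104 to 11614 genes in a library, the span of a gene and its log2 ratio of neurons to free RNA had a Spearman correlation of 0.51, 0.54 and 0.60, given as a description because genes are not independent and share the libraries. The median log2 ratio was -0.70, -0.56 and -0.77 for genes of at most 20 kb and 0.08, 0.28 and 0.37 for longer genes. Of the 10 transcripts, 7 come from genes of at most 20 kb, and Nefm, Stmn2 and Avil from longer ones.

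The 10 transcripts also separated neurons from one another by their Malat1 share. Within each library, neurons were cut into 3 groups of equal size (terciles) by the share of their UMIs that is Malat1, with medians of 0.966%, 0.147% and 0.247% in the lower tercile and 5.78%, 1.94% and 2.13% in the upper one. All 10 transcripts were higher in the lower tercile, where 31.0% of all 17330 genes tested were called higher and 32.1% lower, and the median log2 fold change was 2.07 over the 10 transcripts and -0.11 over all genes. The neurofilament subunits had the largest differences. Nefh was at 4083, 4984 and 3093 CPM in the lower tercile of the adult library and aged libraries 1 and 2 and at 293, 329 and 162 CPM in the upper, with no overlap (log2 fold change 3.94 ± 0.26, adjusted p = 4.33e-06). Nefm was at 4855, 4994 and 3171 CPM against 488, 380 and 223 CPM (log2 fold change 3.57 ± 0.27, adjusted p = 4.33e-06). Nefl was at 5531, 5534 and 3547 CPM against 599, 500 and 296 CPM (log2 fold change 3.37 ± 0.26, adjusted p = 4.33e-06). Against free RNA, the levels of the 3 subunits in the lower tercile were 0.59 to 1.09 higher on the log2 scale in the adult library, and from 0.35 below to 0.24 above in the aged ones.

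The other transcripts rose less from the upper to the lower tercile. Prph was at 1287, 1345 and 1142 CPM in the lower tercile and 491, 475 and 444 CPM in the upper (log2 fold change 1.37 ± 0.20, adjusted p = 1.03e-04). Stmn2, which binds tubulin dimers and is tied to axon growth, was at 1800, 1706 and 1433 CPM against 708, 654 and 560 CPM (1.31 ± 0.20, adjusted p = 1.71e-04). Avil had the smallest difference, 432, 514 and 474 CPM against 278, 290 and 285 CPM (0.68 ± 0.18, adjusted p = 0.00568), and its call was lost without aged library 2 (log2 fold change 0.67). Between these and the neurofilaments lay Sncg (2.22 ± 0.21), Tubb3 (2.31 ± 0.23), Uchl1 (1.92 ± 0.21) and Ina (1.71 ± 0.15), each with an adjusted p of at most 1.44e-05. Mitochondrial transcripts moved with the split, at 0.437%, 0.656% and 0.467% of UMIs in the lower tercile against 0.088%, 0.146% and 0.0572% in the upper, as did the depth, with medians of 2884, 3928 and 3700 UMIs against 19163, 8393 and 16412. Of the lower tercile, 62.0%, 42.9% and 49.0% fell into neuron clusters when nuclei were clustered without the 10 genes, against 97.0%, 89.9% and 96.4% of the upper. The part of each of these in the differences was not tested.

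**Figure D2:**
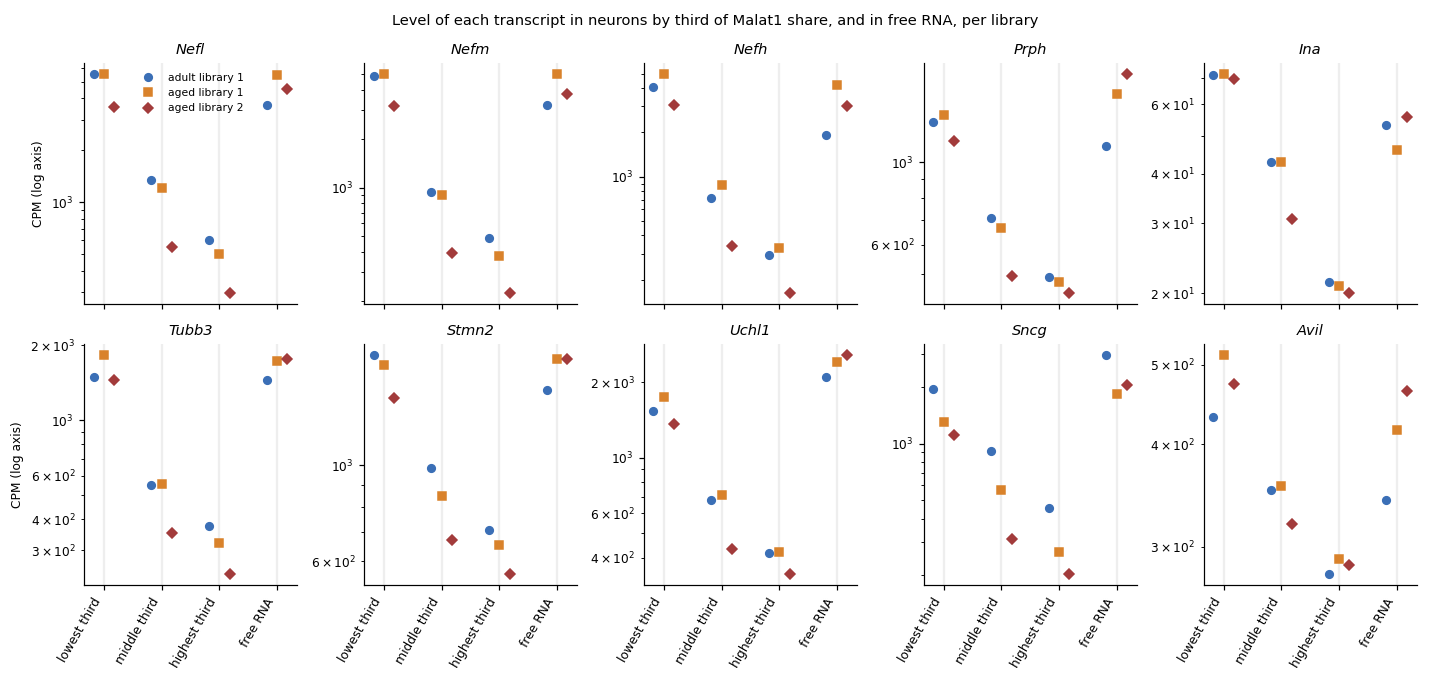
CPM (log axis) of each transcript in the lower, middle and upper tercile of neurons by Malat1 share, and in free RNA, with 1 point per library. In all 10 panels the levels fall from the lower to the upper tercile in every library, steeply for Nefl, Nefm and Nefh and least for Avil.

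The comparison with other cell classes rests in part on these nuclei. With neurons of the upper tercile alone, a choice made after seeing the data, 6 of the 10 transcripts were called higher in neurons. The other classes were not cut by Malat1 share, so that neurons and the classes they are set against were not treated alike. Avil (log2 fold change 2.67), Prph (2.01), Stmn2 (1.85), Ina (1.78), Tubb3 (0.93) and Uchl1 (0.82) were called. Nefl was at 0.14 ± 0.19, Nefm at 0.20 ± 0.21, Nefh at 0.06 ± 0.21 and Sncg at 0.31 ± 0.17, and none of these passed (adjusted p of 0.544, 0.435, 0.851 and 0.121). In this setting 33.4% of genes were called higher and 27.7% lower.

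Neurons were assigned to 6 subtypes by markers that hold none of the 10 genes, namely Mrgprd+ non-peptidergic nociceptors (NP), itch neurons (SST), peptidergic nociceptors (PEP), cold-sensing TRPM8 neurons, TH+ low-threshold mechanoreceptors of C fibers (TH) and large-fiber neurons (NF). The nuclei called TH held the NP list at 4684 CPM in sum, above their own list at 3151 CPM, and most of this was Grik1, a glutamate receptor subunit, at 4627, 3571 and 3927 CPM in TH neurons against 12997, 9328 and 9899 CPM in NP neurons. Mrgprd, which defines NP neurons, was at 11.5, 40.9 and 12.3 CPM in TH and 221, 132 and 128 CPM in NP neurons, and Th was at 201, 225 and 233 CPM in TH and 2.30 to 7.82 CPM in NP neurons. Neurons with markers of a second subtype (264, 127 and 62) and those that no subtype took up (503, 324 and 145) entered no subtype. They remain in the sums of all neurons. Those that no subtype took up had median depths of 2248, 2442 and 2582 UMIs. Each subtype was compared with the mean of the other 5. In NF neurons the neurofilament subunits were higher and Prph lower. There, 4 of the 10 transcripts were higher (23.3% of 17074 genes were called higher) and 2 were lower (18.1% were called lower). Nefh was at 1584, 2349 and 1242 CPM in NF neurons of the adult library and aged libraries 1 and 2, above every sum of any other subtype, the next being 890 CPM in PEP neurons of aged library 1 (log2 fold change 2.34 ± 0.21, adjusted p = 3.02e-08). Nefm was at 1825, 2141 and 1216 CPM in NF neurons, again above all other sums (1.77 ± 0.17, adjusted p = 1.07e-07). Nefl was at 1834, 2251 and 1245 CPM, and the value of aged library 2 lay within the range of the other subtypes (1.26 ± 0.17, adjusted p = 7.20e-06). Tubb3, the neuron-specific beta-tubulin, was 1.42-fold higher in NF neurons (0.50 ± 0.12, adjusted p = 0.00224).

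Prph and Sncg were lower in NF neurons. Prph was at 347, 461 and 385 CPM in NF neurons, below every sum of the other subtypes, of which the lowest was 486 CPM in SST neurons (log2 fold change -0.78 ± 0.11, adjusted p = 9.90e-06). Sncg was at 370, 321 and 237 CPM in NF neurons, below each other subtype of the same library (-0.78 ± 0.14, adjusted p = 1.31e-04). Stmn2 (-0.15 ± 0.09), Uchl1 (-0.10 ± 0.12), Avil (-0.17 ± 0.08) and Ina (-0.25 ± 0.16) did not pass. Among the upper Malat1 tercile alone, the direction for Prph (-1.02 ± 0.13) and Sncg (-1.30 ± 0.13) was kept and Nefh was 2.07-fold higher (1.05 ± 0.23, adjusted p = 0.00137). Nefm (0.45 ± 0.22, adjusted p = 0.115), Nefl (0.03 ± 0.22, adjusted p = 0.948) and Tubb3 (0.05 ± 0.14, adjusted p = 0.828) did not pass there, and Uchl1 was called lower (-0.36 ± 0.13). In this setting 20.8% of genes were called higher in NF neurons and 15% lower.

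PEP neurons were higher for 8 of the 10 transcripts, with 20% of 17074 genes called higher and 13.3% lower. Stmn2 was at 1368, 1137 and 976 CPM in PEP neurons against 534 to 994 CPM elsewhere (log2 fold change 0.62 ± 0.09, adjusted p = 1.78e-05), and it was highest in PEP neurons within each library. Tubb3 was at 869, 821 and 609 CPM (0.89 ± 0.12, adjusted p = 9.08e-06), and Sncg was 1.69-fold, Uchl1 1.34-fold and Prph 1.33-fold higher. Nefl, Nefm and Nefh were also called higher in PEP neurons (0.56 ± 0.18, 0.55 ± 0.19 and 0.72 ± 0.23). In the upper Malat1 tercile these 3 turned to -0.24, -0.33 and -0.28, none of them past the threshold. Tubb3 (0.66), Stmn2 (0.58), Sncg (0.68) and Prph (0.40) remained higher there and Avil was called lower (-0.39 ± 0.13), against 17.0% and 8.69% of genes called in these directions. The call of Uchl1 was lost there. PEP neurons had the largest part of their nuclei in the lower Malat1 tercile, 40.2%, 41.5% and 45.1%, against 11.6%, 4.92% and 10.8% of TRPM8 neurons.

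TH neurons were low in neurofilaments. Nefh was at 162, 282 and 80.6 CPM in TH neurons of the adult library and aged libraries 1 and 2 (log2 fold change -1.65 ± 0.28, adjusted p = 1.11e-04). Nefm was at 285, 331 and 133 CPM (-1.56 ± 0.22, adjusted p = 1.80e-05), and Nefl (2.0-fold, adjusted p = 7.42e-04) and Tubb3 (-0.99 ± 0.14) were also lower, making 4 of the 10 where 14.6% of genes were called lower. Ina was 1.43-fold higher (0.52 ± 0.16), where 17.2% were called higher. After subtraction of free RNA, 4, 3 and 3 of the 10 transcripts were left with at most 3 UMIs in TH neurons. The neurofilament subunits were among them in every library and could not be compared after subtraction. Nefm (-1.24), Nefh (-1.08) and Tubb3 (-0.81) remained lower in the upper Malat1 tercile, where 9.73% of genes were called lower, and none of the 10 was called higher, against 15% of genes. The calls of Nefl (-0.65, adjusted p = 0.0544) and Ina (0.73 ± 0.28, adjusted p = 0.0689) were lost there, the latter with a larger fold.

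NP neurons, which also have unmyelinated fibers, were low in Nefh too. Nefh was at 346, 183 and 108 CPM (log2 fold change -1.22 ± 0.27, adjusted p = 0.00115), Nefm was 1.55-fold and Tubb3 1.37-fold lower, and Nefl did not pass (-0.16 ± 0.19), with 17.1% of genes called lower. Ina was higher in the fit (0.87 ± 0.15, adjusted p = 8.59e-05), and the libraries differed. In the adult library it was at 61.2 CPM in NP neurons against 11.7 to 37.0 CPM in the other subtypes, whereas its 37.0 CPM in aged library 1 lay below the 48.0 CPM of TH neurons and its 33.3 CPM in aged library 2 lay beside the 33.5 CPM of PEP neurons. Avil (0.53 ± 0.08) and Sncg (0.36 ± 0.13) were higher as well, with 19.5% of genes called higher. Sncg was at 1174 CPM in adult NP neurons, where it was the highest of the 6 subtypes, and was below PEP neurons in both aged libraries. In the upper Malat1 tercile Ina (1.21 ± 0.25), Sncg (0.61 ± 0.12), Avil (0.54 ± 0.12) and Prph (0.38 ± 0.12) were higher and Nefh lower (-0.85 ± 0.27), against 17.3% and 12.9% of genes. The calls of Nefm (-0.30, adjusted p = 0.38) and Tubb3 (-0.32, adjusted p = 0.0971) were lost there.

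SST and TRPM8 neurons are the smallest groups, at 40 to 89 and 37 to 147 nuclei per library. In SST neurons Ina (log2 fold change -1.50 ± 0.29), Nefl (-0.97 ± 0.21) and Nefh (-0.80 ± 0.27) were lower and Avil (0.34 ± 0.09) was higher, against 9.84% and 10.2% of genes called in these directions. After subtraction of free RNA, 3 of the 10 transcripts, all of them neurofilament subunits, were left with at most 3 UMIs in SST neurons of each aged library. In the upper Malat1 tercile Nefl and Nefh were at 0.01 and 0.59 in SST neurons and not called, and none of the 10 was, against 3.26% of genes called higher and 2.29% lower. Ina (-2.53 ± 0.87, adjusted p = 0.101) and Avil (0.52 ± 0.16, adjusted p = 0.063) lost their calls with larger folds. In TRPM8 neurons Avil was lower, at 233, 234 and 231 CPM, below every other subtype in every library (-0.66 ± 0.09, adjusted p = 2.13e-05), and so was Stmn2 (-0.38 ± 0.10), against 10.2% of genes called lower. None was called higher, against 11.9% of genes. In the upper Malat1 tercile Avil remained lower (-0.65 ± 0.14) and Nefm (0.69 ± 0.22) and Prph (0.48 ± 0.12) were called higher, against 8.79% and 13.3% of genes. The call of Stmn2 was lost there.

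**Figure D3:**
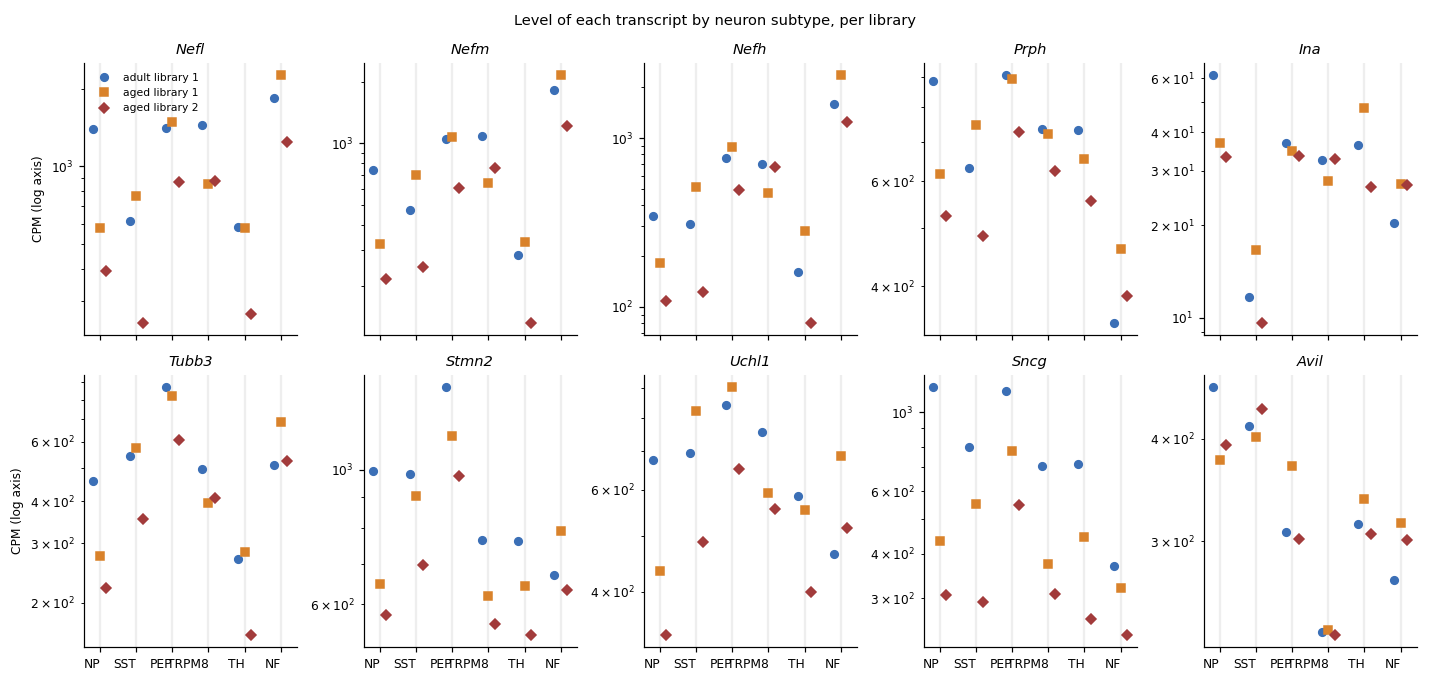
CPM (log axis) of each transcript in 6 neuron subtypes, with 1 point per library. Nefh and Nefm peak in NF neurons and are low in TH and NP neurons, Prph is lowest in NF neurons in every library, and Avil is lowest in TRPM8 neurons.

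Over the 18 sums of subtype and library, the neurofilament subunits followed one another, with Pearson correlations of log2(CPM + 1) of 0.92 to 0.98. Prph followed Sncg (0.79) and had -0.15 with Nefh and 0.07 with Nefl, and Avil had -0.41 with Nefh. Among 7858 genes, those most like Nefh were Lgi3 (0.948), Htra1 (0.937), Ankrd29 (0.936), Clu (0.935) and Vamp1 (0.934), of which Vamp1 encodes a synaptic vesicle protein. Those most like Prph were Npdc1 (0.918), Tprgl (0.909), B230219D22Rik (0.906), Bex3 (0.905) and Flot1 (0.897). The sums share libraries and depth, and these values are descriptions.

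With age, Sncg was the transcript that fell in the sum of all neurons. It was at 824 CPM in adult neurons against 539 and 373 CPM in those of aged libraries 1 and 2, a fall to 0.506 of the adult level in the fit (log2 fold change -0.98 ± 0.22, adjusted p = 0.0128), where 5.23% of 21808 genes were called lower. This fit has 1 residual degree of freedom, and the adult library, which stands alone, is assumed to vary like the aged ones. The other 9 transcripts did not pass, and 0.899% of genes were called higher. Nefh was at 932 CPM in adult neurons and on either side of it in aged ones, 1240 and 635 CPM (log2 fold change -0.12 ± 0.29). Avil was at 326, 349 and 326 CPM (-0.08 ± 0.20), and the other 7 lay between -0.47 and -0.20. In CPM the median gene was 0.10 higher (log2) in aged than in adult neurons, and up to 0.19 higher within a subtype, which the scaling of the fit removes. Fold changes are therefore relative to the median gene.

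Sncg was lower in other sums too. In the upper Malat1 tercile of neurons it was at 458, 267 and 203 CPM (log2 fold change -1.12, adjusted p = 0.00445, against 3.8% of genes called lower and 1.13% higher), and in free RNA at 2951, 1834 and 2051 CPM. It was lower in both aged libraries than in the adult one in 6 of 6 subtypes and was called in NP (-1.76 ± 0.15), TRPM8 (-1.23 ± 0.19), TH (-1.18 ± 0.25) and PEP neurons (-0.95 ± 0.25). In SST (-1.08 ± 0.40) and NF neurons (-0.64 ± 0.19) it did not pass, though in the upper Malat1 tercile of NF neurons it did (-0.88 ± 0.19, adjusted p = 0.0135, against 2.58% of genes called lower and 0.211% higher). After subtraction of free RNA, Sncg was left with at most 3 UMIs in all NF neurons of the adult library and aged library 2. Its difference with age in NF neurons could not be compared after subtraction. Its call in the sum of neurons was lost when neurons were thinned to 1000 UMIs (-0.54) and when free RNA was subtracted (-0.95). Its call in TH neurons was lost with no low-count filter, where no gene was called in that subtype. With free RNA subtracted, calls with age by subtype went from 13 to 9 of the 46 values left, mostly in NP neurons. The highest share of free RNA that other markers allow in TH neurons was 18.9% (adult), 12.5% and 8.73% (aged libraries 1 and 2). It was 19.6%, 10.3% and 12.2% in TRPM8 and 17.0%, 20.2% and 17.0% in PEP neurons. The part of free RNA in the fall of Sncg there was not tested. For the neurofilaments, the levels in free RNA were higher in both aged libraries, with Nefh at 1914, 4214 and 3025 CPM and Nefl at 3642, 5467 and 4522 CPM.

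Within NP neurons, 9 of the 10 transcripts were lower with age, where 13.1% of 16059 genes were called lower and 9.98% higher. Nefl was at 1399 CPM in adult NP neurons against 577 and 393 CPM in those of aged libraries 1 and 2 (log2 fold change -1.63 ± 0.15, adjusted p = 9.30e-25). Nefm was at 742 against 322 and 218 CPM (-1.56 ± 0.15) and Nefh at 346 against 183 and 108 CPM (-1.35 ± 0.15). Sncg was at 1174 against 435 and 307 CPM (-1.76 ± 0.15, adjusted p = 5.00e-29). Both aged libraries lay below the adult one for all 10 transcripts. Tubb3 (-0.98 ± 0.15), Uchl1 (-0.91 ± 0.15), Ina (-0.90 ± 0.18), Stmn2 (-0.80 ± 0.15) and Prph (-0.74 ± 0.15) were called as well, and Avil was not (-0.36 ± 0.15, adjusted p = 0.0739). The small p-values come from a spread shared across genes, with 1 residual degree of freedom, and cover these 3 libraries.

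Nuclei of NP neurons differed between the ages in other ways. Their median depth was 9129 UMIs when adult and 15597 and 19606 when aged, and 23.9% of the adult but 9.75% and 13.8% of the aged ones lay in the lower Malat1 tercile of their library. These terciles were cut within each library. The median Malat1 share itself was 3.61% in adult and lower, 1.51% and 1.60%, in aged NP neurons. The highest share of free RNA that markers of other cell types allow was 15.7% in adult and 10.5% and 9.19% in aged NP neurons. With free RNA subtracted at these shares, 2 and 3 of the transcripts, all of them neurofilament subunits, were left with at most 3 UMIs in aged NP neurons and could not be compared. The other 7 were called lower, from -2.27 (Sncg) to -0.55 (Avil), where 5.26% of 15045 genes were called lower and 2.31% higher. The part of depth and Malat1 share in the fall was not tested. Among NP neurons of the upper Malat1 tercile all 10 transcripts were called lower (median log2 fold change -0.88), against 11.1% of genes called lower and 6.88% higher, with Nefl at 954 CPM in adult and 388 and 274 CPM in aged nuclei.

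In the other subtypes few calls were made with all neurons. Beside Sncg, Nefl was lower in TRPM8 neurons, at 1451 against 857 and 880 CPM (log2 fold change -0.92 ± 0.17, adjusted p = 0.0153), where 0.803% of genes were called lower. In PEP neurons 3.72% and in TH neurons 1.98% of genes were called lower. None of the 10 transcripts was called in NF or SST neurons by edgeR, where 3.57% and 0.572% of genes were called lower, and DESeq2's Wald test called 0 in each. At an unadjusted p under 0.05 in edgeR's test, 1 of the 10 (Sncg) passed in each, where 16.9% of all genes did in NF and 5.84% in SST neurons. By the same measure 7 of the 10 passed in TRPM8, 3 in TH and 2 in PEP neurons, where 8.62%, 9.54% and 13.8% of all genes did. All 10 fold changes lay below 0 in TRPM8, TH and PEP neurons, with medians (log2) of -0.53, -0.47 and -0.38. In NF neurons Nefh was at 1584 CPM when adult and at 2349 and 1242 CPM when aged, which lie on either side. None of the 10 was called higher with age in any subtype, where the genes called higher were 0.302% in NF, 0.719% in PEP, 0.0281% in SST, 0.47% in TH and 0.0605% in TRPM8 neurons. The age difference in NF neurons minus the mean of that in the other 5 subtypes was above 0 for all 10, with a median of 0.49 against 0.02 over all genes. None of these differences passed edgeR's test (lowest adjusted p = 0.164, for Uchl1), and 0.00521% of 19189 genes were called in each direction. An unadjusted p under 0.05 was reached by 5 of the 10 and by 11.1% of all genes. In the upper Malat1 tercile it was reached by 0 of the 10 and by 3.35% of all genes, with 9 of the 10 above 0 and Ina at -1.56 ± 1.18, and edgeR's test called 0 of the 10 and 0 of 17331 genes. NP neurons were not tested against the other subtypes.

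The age differences in the sum of neurons moved with the Malat1 share of the neurons kept. When the tercile of neurons with the lowest Malat1 share over all libraries was left out, 9 of the 10 transcripts were called lower with age in the sum of neurons, with Nefl at a log2 fold change of -1.25, Nefm at -1.26, Nefh at -1.05 and Avil, the one not called, at -0.16. In this setting 7.53% of 20708 genes were called lower and 4.74% higher. By subtype, calls with age went from 13 to 29 of 59, all lower, with 10 in NP, 9 in PEP, 5 in NF, 4 in TRPM8, 1 in TH and 0 in SST neurons. In NF neurons these were Nefm (-1.31), Sncg (-1.25), Nefl (-1.22), Nefh (-1.05) and Tubb3 (-0.61), where 5.29% of genes were called lower. The shares of genes called lower were 16.3% in NP, 6.34% in PEP, 0.795% in TRPM8, 1.79% in TH and 0.436% in SST neurons. This cut removed 20.1% of adult neurons but 53.2% and 42.3% of those in aged libraries 1 and 2, since the median Malat1 share of neurons was 3.43%, 1.09% and 1.37%. With a cut of equal size in each library, the upper tercile alone, the ages still differed in Malat1 share. The medians there were 5.78% in adult neurons and 1.94% and 2.13% in those of aged libraries 1 and 2. In that tercile Sncg was the 1 transcript called. There Nefm was at -0.85 (adjusted p = 0.0693), Nefl at -0.75 (adjusted p = 0.097) and Tubb3 at -0.58 (adjusted p = 0.0776), against -0.43, -0.47 and -0.23 in all neurons, and 5 of the 10 had an unadjusted p under 0.05, as had 22.3% of all genes.

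**Figure D4:**
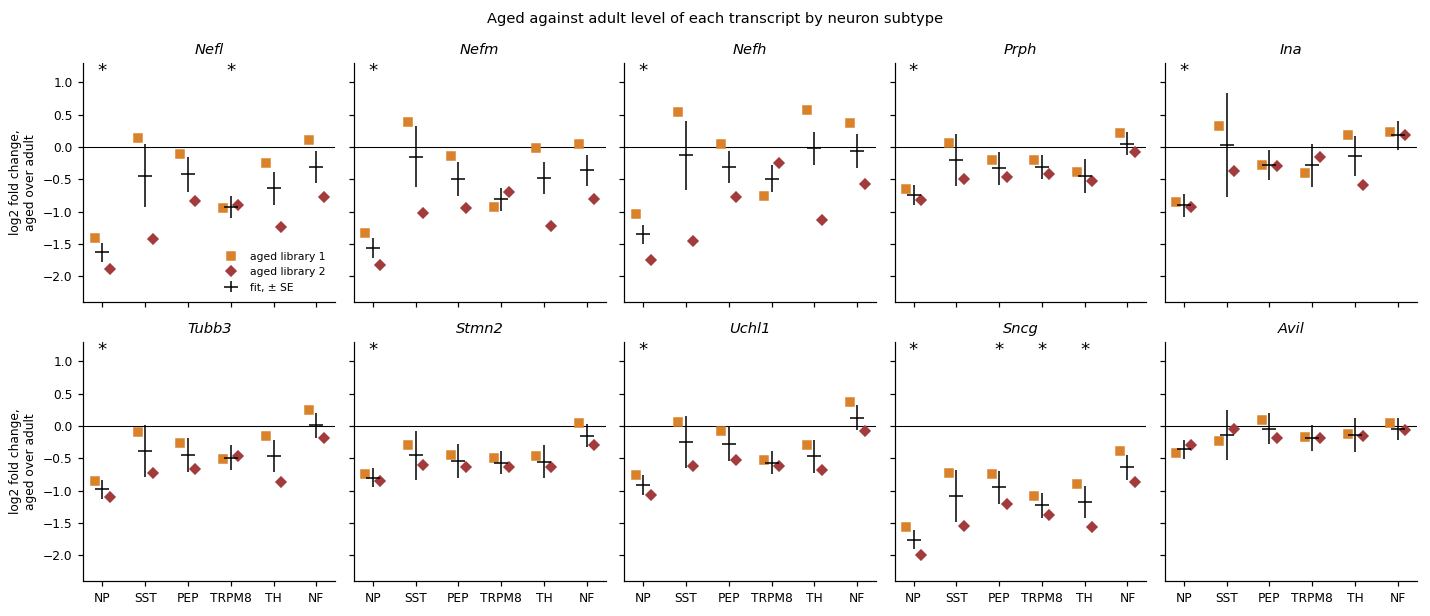
Log2 fold change of each transcript, aged over adult, in 6 neuron subtypes. Squares and diamonds are aged libraries 1 and 2, each fitted alone against the adult library, bars are the fit of all 3 libraries ± SE, and asterisks mark an adjusted p under 0.05. NP neurons lie below 0 in all 10 panels, Sncg lies below 0 in every subtype, and Nefh in NF neurons straddles 0.

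Other genes of the cytoskeleton were followed in 7 lists of 92 genes. In neurons against other classes 63 of the 83 tested were higher and 8 lower (median log2 fold change 1.22), beside the 34.4% and 30% of all genes. All 12 axonal motors were higher, as were 10 of 12 spectrins and ankyrins, 17 of 19 microtubule-associated proteins and stathmins, 8 of 11 tubulins, 7 of 13 actin and gelsolin family genes, 6 of 8 synucleins and ubiquitin hydrolases, and 3 of 8 other filament genes. The largest were Dcx (doublecortin, 5.02 ± 0.38), the dynein chain Dync1i1 (3.84 ± 0.11) and the axonal spectrin Sptbn4 (3.63 ± 0.17), and the largest in the other direction were Nes (nestin, -3.27 ± 0.41), Capg (-2.94 ± 0.24) and Add3 (-2.16 ± 0.19).

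By Malat1 share, 59 of 87 listed genes were higher in the lower tercile and 12 lower (median log2 fold change 1.00), beside 31.0% and 32.1% of all genes. All 13 tubulins were higher, with Tuba4a (3.11 ± 0.22) and Tuba1b (2.68 ± 0.21) foremost, beside Map1a (2.67 ± 0.24). Higher too were 11 of 13 actin and gelsolin family genes, 11 of 12 motors, 9 of 20 microtubule-associated proteins and stathmins, 6 of 9 other filament genes, 5 of 8 synucleins and ubiquitin hydrolases and 4 of 12 spectrins and ankyrins. Svil (-1.71 ± 0.17), Map7 (-1.57 ± 0.18) and Sncaip (-1.40 ± 0.25) were lower.

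In NF neurons 27 of 86 listed genes were higher and 21 lower (median 0.08), where 23.3% and 18.1% of all genes were called. They were led by Map2 (2.78 ± 0.18), Dpysl4 (1.67 ± 0.15) and Tuba4a (1.63 ± 0.15), and by Tubb2b (-1.65 ± 0.16), Stmn1 (-1.64 ± 0.10) and Ank3 (-1.40 ± 0.10). Of the spectrins and ankyrins 7 of 12 were higher, the largest share of any list.

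In PEP neurons 44 of the 86 were higher and 9 lower, where 20% and 13.3% of all genes were called, among them 14 of 20 microtubule-associated proteins and stathmins, 10 of 13 actin and gelsolin family genes and 9 of 12 tubulins, and the growth-associated Gap43 was 7.14-fold higher (2.84 ± 0.14). PEP neurons had the largest part of their nuclei in the lower Malat1 tercile (40.2%, 41.5% and 45.1%). In that tercile 13 of 13 tubulins and 11 of 13 actin and gelsolin family genes were higher. The lists were not counted in the upper tercile alone. In TH neurons 12 were higher and 22 lower, where 17.2% and 14.6% of all genes were called. Scin, a gelsolin relative like Avil, was 25.3-fold higher there (4.66 ± 0.19), while 2 of the 13 actin and gelsolin family genes were higher and 6 lower. In NP neurons 15 were higher and 23 lower, where 19.5% and 17.1% of all genes were called, and Dcx was 8.24-fold higher (3.04 ± 0.22). In TRPM8 neurons 14 were higher and 16 lower, where 11.9% and 10.2% of all genes were called, and the spectrin Sptb was 6.23-fold higher (2.64 ± 0.11). In SST neurons 8 were higher and 17 lower, where 10.2% and 9.84% of all genes were called.

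With age, 3 of 90 listed genes were lower in the sum of neurons and none higher, where 5.23% and 0.899% of all genes were called. They were Krt8 (-1.73 ± 0.47), the actin-sequestering thymosin Tmsb4x (-0.95 ± 0.22) and Sncaip, a partner of synuclein (-0.73 ± 0.21), with a median of -0.05 over the lists. In NP neurons 39 of 85 listed genes were lower with age and 3 higher (median log2 fold change -0.39, against 0.00 over all genes), where 13.1% and 9.98% of all genes were called. Lower were 9 of 11 tubulins, 8 of 13 actin and gelsolin family genes, 7 of 12 motors and 8 of 20 microtubule-associated proteins and stathmins. Tmsb4x had the largest fold of the listed genes there (-1.73 ± 0.15). In the other subtypes, 2 of 88 listed genes were lower in NF, 2 of 81 in TRPM8 and 1 of 81 in TH neurons. None was lower of the 86 in PEP and the 77 in SST neurons. Of all genes, 3.57%, 0.803%, 1.98%, 3.72% and 0.572% were called lower in NF, TRPM8, TH, PEP and SST neurons.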

How the data were processed

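The values are UMI counts of genes by barcode as deposited by the authors, who used Pipseeker on PIP-seq libraries of nuclei. The submitters' processing notes name the build mm10, and the annotation and any use of strand are not given in the sources used here. Barcodes with more than 1000 genes were kept (19259), which is the minimum in the study's methods. Classes and subtypes were set by marker lists, first neuron or not, then by a Poisson likelihood, and nuclei with markers of a second class were set aside as mixed (7.64% to 12.7%), which was the treatment of doublets. For the sums, no nucleus was normalized or integrated. For the alternative clusters, the counts of each nucleus were normalized, log-transformed and scaled.

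Counts were summed per library and class (CPM is a share of the sum's UMIs scaled to 1000000) and tested with edgeR 4.0.16 in R 4.3.3 (TMM scaling, filterByExpr, glmQLFit and glmQLFTest, Benjamini-Hochberg, threshold 0.05). The library was a block for comparisons of classes, subtypes and Malat1 terciles. Alternatives were DESeq2 1.42.0, other scaling, no filter, more than 2000 genes, scanpy 1.11.5 clusters made without the 10 genes (6080 of 7846 gated neurons fell into neuron clusters), thinning, subtraction of free RNA and cuts by Malat1. Scripts were tested on simulated data. Intervals and floors cover counting error only. Each of the 10 genes is reported. From the 7 lists, the 3 genes with the largest fold each way among those called in a comparison could be named, and for Nefh and Prph the 5 genes most like them with a mean CPM of at least 20. The 10 genes and the lists were chosen with earlier results of these data known, and the restrictions to the upper Malat1 tercile, and the subtraction of free RNA in the comparison of NF with other subtypes, were added after the data were seen. Positions are from GENCODE M21 by Ensembl identifier.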

Additional observations from a re-analysis of the deposited data

Results flagged for a closer look

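Ina in NF neurons was marked because it was higher in both aged libraries than in the adult one (log2 fold change 0.18) while it was lower in both in NP, PEP and TRPM8 neurons. The difference between NF neurons and the mean of the other subtypes was 0.51 ± 0.24 and did not pass (adjusted p = 0.45), and the other pairs of subtypes were not tested.

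Nuclei that no class took up, 1160, 398 and 223 in the adult library and aged libraries 1 and 2, entered no comparison. They held the 10 transcripts at 7544, 10782 and 6621 CPM in sum, against 7707, 7904 and 5169 CPM in neurons and 18285, 24420 and 21689 CPM in free RNA. Nuclei set aside as mixed, 880, 650 and 296, entered no comparison either and held 12894, 10922 and 8511 CPM in sum, above neurons in every library.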

How the results depend on the processing

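Of 1378 values of single transcripts under alternatives, 1153 kept their direction and their side of the threshold, 51 lost a call, 52 gained one 59 that could not be tested moved by over 1 SE of the main value, 6 reversed, and the rest changed sign with neither value past the threshold (70 in all, 13 of them among the 59). The 6 were Nefl, Nefm and Nefh in PEP neurons (-0.24, -0.33 and -0.28) and Nefl and Nefh in SST neurons (0.01 and 0.59), all in the upper Malat1 tercile, and Tubb3 with age in NF neurons without the lower Malat1 tercile over all libraries (-0.61); the cause was not tested. Calls by class went from 10 to 6 with neurons of the upper Malat1 tercile set against uncut classes. Calls by subtype went from 31 of 60 to 20 in that tercile and to 11 of the 30 left after subtraction of free RNA. After subtraction, transcripts with at most 3 UMIs in a sum, or under the low-count filter, were left out (46 of 60 values remained with age by subtype and 5 of 10 for NF against other subtypes). Calls with age in neurons went from 1 to 0 with free RNA subtracted, to 0 with neurons thinned and to 9 without the lower Malat1 tercile, where those by subtype went from 13 to 29. The difference between NF and other subtypes went from 0 to 2 calls (Uchl1 and Sncg) with no low-count filter.

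Leaving out 1 library gave 10 calls by class each time, 23 to 32 by subtype and 9 to 10 by Malat1 share. The age fits had no test without a library: Sncg in neurons was then at -1.25 or -0.77, and Nefh at -0.66 or 0.26. No paired analysis was possible because the labels do not pair an adult library with an aged one. Every age result rests on 1 adult library.

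Counts over all genes moved more. Genes lower with age in neurons were 1140 by edgeR, 498 by DESeq2, 508 with free RNA subtracted, 242 after thinning, 1631 with over 2000 genes per nucleus, 1644 with RLE scaling, 1732 with no filter and 1560 without the lower Malat1 tercile. In NF neurons they were 651 and ranged from 53 (RLE scaling) to 906, in NP 2106 (534 by DESeq2 to 2534), in PEP 657 (124 to 1040), in SST 61 (4 to 176), in TH 270 (0 with no filter) and in TRPM8 93 (23 to 172). The difference between NF and other subtypes went from 1 gene each way to 246 higher and 74 lower with no filter and 39 and 5 with free RNA subtracted. By subtype, SST neurons went from 1740 higher and 1680 lower to 481 and 338 in the upper Malat1 tercile, and PEP neurons from 3422 and 2269 to 2021 and 1301 without aged library 1.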
